A study of Rattus norvegicus with 28 samples.

Results

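Fgf21 and Fut1 are neighbouring protein-coding genes of the rat, and their mRNA levels were followed here in 28 tibialis anterior muscles of 14 rats. The 2 genes (ENSRNOG00000020990 and ENSRNOG00000020995) were taken from the 32883 genes of the count files because their reads had already been seen to differ between legs in these same muscles. Their levels and leg ratios are therefore given as a description, with no test. In the overexpression arm (rats 416 to 422) the right muscle received a mouse VDR plasmid by in vivo electrotransfer (IVE; VDR-OE), and the left muscle of the same rat received the empty vector. In the knock-down arm (rats 423 to 429) the right muscle received VDR shRNA (labelled VDR-KD) and the left a scramble shRNA, which gives 4 groups of 7 muscles. The labels describe an injection into both legs of each arm, followed by electric pulses and by carprofen, an anti-inflammatory drug. They call the control legs Sham, and whether these were pulsed in the knock-down arm is not stated beyond that. The study's methods describe male Wistar rats aged 8 weeks on arrival and collection 10 days after IVE for VDR-OE. All rats are said to have fasted overnight before euthanasia, and some had a glucose tolerance test. Which rats had that test is not given. The methods do not describe the VDR-KD arm, and labels and methods name different plasmid backbones. Whole muscle was sequenced, in which fewer cells of a type and less RNA per cell cannot be told apart.

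FGF21 is a secreted hormone of the fibroblast growth factor family that signals through FGF receptors together with the co-receptor β-Klotho. The liver is its best known source, and skeletal muscle releases it when mitochondria or protein folding are disturbed. In stressed cells, kinases that phosphorylate eIF2α raise the translation of the transcription factor ATF4, which switches on genes of amino acid supply and stress adaptation (the integrated stress response), Fgf21 among them. FUT1 is a fucosyltransferase that adds fucose to cell surface glycans and builds the H antigen. Gene by gene order in RefSeq (GRCr8) runs Ppp1r15a, Plekha4, Hsd17b14, Bcat2, Fgf21, Fut1, Izumo1. Whether the spans of Fgf21 and Fut1 overlap in the annotation used for counting (rat genome 6.0) was not examined.

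The promoter of Fgf21 is shown because ATF4 binds a composite C/EBP-ATF element. The RefSeq window runs from 250 bases before to 50 bases after the start, on the minus strand at chr1:105221327-105221626 (GRCr8). Capitals mark, in order, the composite core TGATGNAA as its reverse complement 143 bases before the start, the E-box CACGTG at 54 bases and a TATA box (TATAAA) at 32 bases.
Fgf21: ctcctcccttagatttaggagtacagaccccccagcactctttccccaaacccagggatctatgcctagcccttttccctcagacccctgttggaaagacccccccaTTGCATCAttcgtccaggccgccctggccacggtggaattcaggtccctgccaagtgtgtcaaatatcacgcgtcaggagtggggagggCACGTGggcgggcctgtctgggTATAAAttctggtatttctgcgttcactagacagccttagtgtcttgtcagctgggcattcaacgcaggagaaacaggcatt
Searched on both strands of all 33469 rat promoters of this length, TGATGNAA was present in 3.98%, CACGTG in 6.42% and TATAAA in 14.2%. The consensus vitamin D response element (DR3, the letters AGGTCA repeated with 3 bases between) was found in 0.0239% of promoters and the PPAR element (DR1, repeated with 1 base between) in 0.0538%, and neither was found in the Fgf21 window. A match is a description of letters and not of binding. No promoter of Fut1 was available in this set, so Fut1 was not searched for any of these motifs.

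The level of Vdr was read first, as a check of the labels. In CPM, the read count scaled to a common library size, Vdr was 4.25 ± 1.57 (SD, n = 7) in empty vector and 2408 ± 2042 (SD, n = 7) in VDR-OE muscles, counted as reads assigned to the rat gene although the plasmid carries the mouse sequence. In 6 of the 7 VDR-OE muscles Vdr lay between 201 and 5937 CPM. The library labelled VDR-OE of rat 419 held 5.45 CPM against 5.74 CPM in its empty vector leg, so it went against its label, and values without it are given below. In the other arm Vdr was 4.15 ± 2.47 CPM (SD, n = 7) in scramble and 3.25 ± 1.64 CPM (SD, n = 7) in legs labelled VDR-KD, and it was lower in the right leg of only 4 of 7 rats. Total counts ranged from 36684220 to 46312167 per muscle.

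Fgf21 was low in VDR-OE muscles and 7.67-fold or more apart from every empty vector muscle. In empty vector muscles it ranged from 4.57 to 37.3 CPM with a median of 13.7 (mean 16.4 ± 11.1, SD, n = 7; 151 to 1644 reads). In VDR-OE muscles it ranged from 0.241 to 0.596 CPM with a median of 0.474 (mean 0.438 ± 0.124, SD, n = 7; 10 to 27 reads). The highest VDR-OE muscle thus lay far below the lowest empty vector muscle. Within rats 416 to 422 the log2 ratio of VDR-OE over empty vector leg was −5.96, −3.18, −5.61, −4.83, −6.09, −5.57 and −3.29, a mean of −4.93 ± 1.23 (SD, n = 7). All 7 rats had the lower level in the VDR-OE leg, rats 417 and 422 with the smallest differences and the lowest empty vector levels. Rat 419, whose Vdr was not raised, lay within the range of the other 6. The fitted log2 difference was −4.97, the lowest of 14526 genes tested in that arm, and −4.99 without rat 419.

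**Figure D1:**
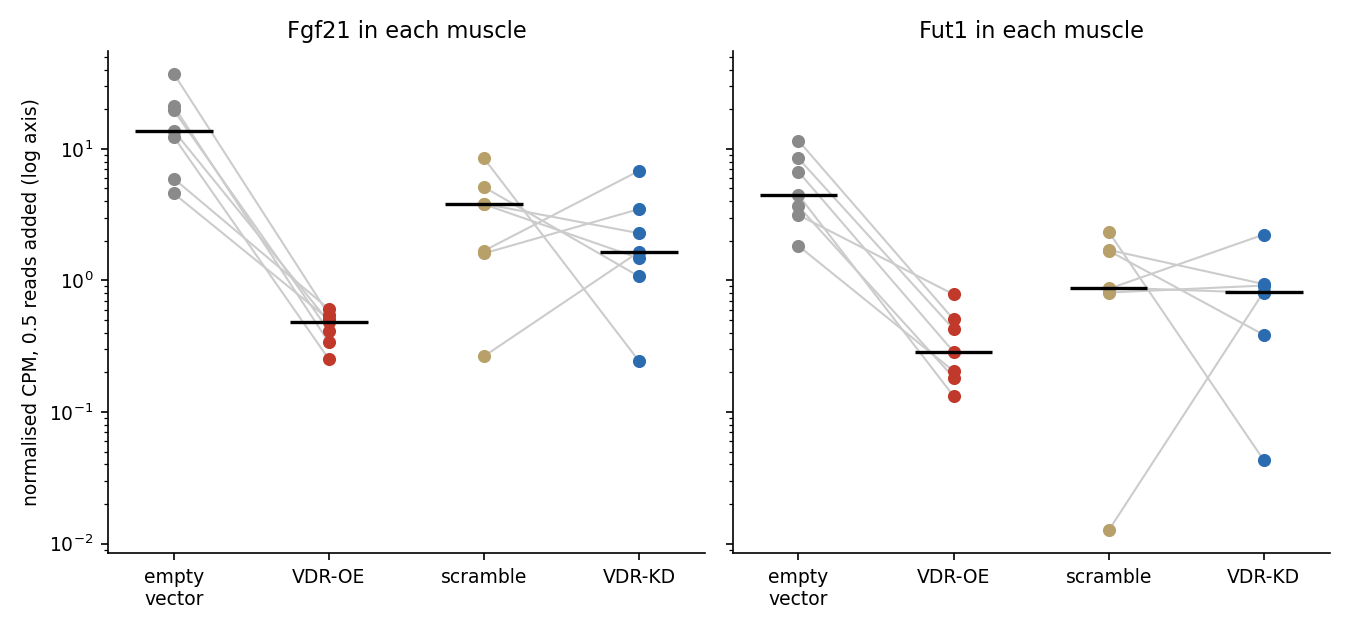
Normalised CPM of Fgf21 (left) and Fut1 (right) on a log axis, with 0.5 reads added, in each of 7 muscles of 4 groups; grey lines join the legs of a rat and black bars are medians. All empty vector muscles sit above all VDR-OE muscles for both genes, while scramble and VDR-KD muscles overlap and their lines cross; the scramble point of Fut1 near the bottom is a muscle with 0 reads.

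Fut1 followed the same order of groups. It ranged from 1.82 to 11.5 CPM with a median of 4.44 in empty vector muscles (mean 5.67 ± 3.41, SD, n = 7; 60 to 508 reads). In VDR-OE muscles it ranged from 0.120 to 0.772 CPM with a median of 0.276 (mean 0.348 ± 0.230, SD, n = 7; 5 to 35 reads). These groups did not overlap either, the lowest empty vector muscle being 2.35 times the highest VDR-OE muscle. The share of all genes whose empty vector and VDR-OE muscles were separate in this way is not given here. The log2 ratios in rats 416 to 422 were −4.31, −3.16, −5.07, −4.32, −4.51, −4.54 and −2.01, a mean of −3.99 ± 1.05 (SD, n = 7). Fut1 was lower in the VDR-OE leg of 7 of 7 rats, least so in rat 422. The fitted difference of −3.99 (−3.93 without rat 419) was the third lowest of the 14526 genes. As background, 7.14% of these genes passed an adjusted p of 0.05 in edgeR's quasi-likelihood test of this leg difference, 4.08% as higher and 3.06% as lower. Nothing is read from this for the 2 genes, which that contrast had chosen.

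In the knock-down arm neither gene had a common direction. Fgf21 ranged from 0.253 to 8.46 CPM with a median of 3.78 in scramble muscles (mean 3.52 ± 2.74, SD, n = 7) and from 0.229 to 6.79 CPM with a median of 1.64 in VDR-KD muscles (mean 2.42 ± 2.18, SD, n = 7). Its log2 ratios in rats 423 to 429 were −5.12, 2.64, 2.02, −2.26, 1.12, −1.36 and −0.74, so 4 rats were lower and 3 higher in the VDR-KD leg. Their mean of −0.53 was small beside the SD of 2.71 (n = 7). The fitted difference of −0.41 moved to 0.17 without rat 423, −0.91 without rat 424, −0.90 without rat 425, 0 without rat 426, −0.76 without rat 427 and −0.15 without rat 428, and to −0.12 with library size alone as the scale.

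Fut1 was as divided among these rats. It ranged from 0 to 2.33 CPM with a median of 0.868 in scramble muscles (mean 1.17 ± 0.772, SD, n = 7) and from 0.0287 to 2.22 CPM with a median of 0.812 in VDR-KD muscles (mean 0.866 ± 0.682, SD, n = 7). Its log2 ratios in rats 423 to 429 were −5.77, 6.02, 1.37, −2.12, 0.18, −0.86 and −0.13 (mean −0.19 ± 3.57, SD, n = 7). The extremes rest on few reads. Rat 424 had 0 reads in the scramble leg and 43 in the VDR-KD leg, which was at least 10.7-fold higher when the scramble leg is set to a floor of 3 reads (0.0758 CPM). The value of 6.02 depends on the 0.5 reads added. Rat 423 had 100 reads in the scramble leg and 1 in the VDR-KD leg, an 81.4-fold difference with a 95% exact interval of 14.3 to 3250 that covers counting error alone. The fitted difference of −0.33 moved to 0.20 without rat 423, −0.87 without rat 424, −0.70 without rat 425, 0.04 without rat 426 and −0.18 without rat 428, and to −0.07 with library size alone. Over all genes 0 of 14652 were called in this arm (0% by edgeR's quasi-likelihood test, the likelihood ratio test and DESeq2), and 395 (2.7%) had an unadjusted p under 0.05.

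The order of mean levels was empty vector, scramble, VDR-KD and VDR-OE for both genes. Only empty vector and VDR-OE, the ends of that order, were separate. For Fgf21, 5 of 7 empty vector muscles lay above the highest scramble muscle, and 6 of 7 scramble and 6 of 7 VDR-KD muscles lay above the highest VDR-OE muscle. For Fut1, 6 of 7 empty vector muscles lay above the highest scramble muscle, and 5 of 7 VDR-KD muscles above the highest VDR-OE muscle. The control legs of the arms thus overlapped but were not alike, the mean log2 level of empty vector being 2.47 (Fgf21) and 2.88 (Fut1) above scramble. Arm, vector and rats cannot be told apart in that difference.

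Both genes varied between muscles of the same group more than most. The SD of log2 CPM of Fgf21 was 1.06 in empty vector, 0.44 in VDR-OE, 1.64 in scramble and 1.51 in VDR-KD muscles, above that of 95.2%, 79.4%, 99.6% and 99.0% of 14406 genes. For Fut1 the SD was 0.91, 0.91, 2.58 and 1.81, above that of 92.7%, 96.7%, 100% and 99.7% of genes. The median SD of all genes lay between 0.23 and 0.35. Much of the spread in the knock-down arm came from single muscles. Without rat 424, whose scramble leg had 0 reads of Fut1, the scramble SD was 0.65 for Fut1 (above 87.1% of genes) and 0.93 for Fgf21 (above 95.3%). Without rat 423, whose VDR-KD leg had 1 read of Fut1, the VDR-KD SD was 0.81 for Fut1 (above 92.8%) and 0.97 for Fgf21 (above 96.7%). Fgf21 was therefore tightest in VDR-OE muscles, where its CV was 28.3% against 68.0% in empty vector muscles, at 10 to 27 reads per muscle.

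The 2 genes moved together. Within groups, Pearson's r of log2 CPM was 0.96 in empty vector, 0.60 in VDR-OE, 0.94 in scramble and 0.95 in VDR-KD muscles (Spearman's rho 0.96, 0.68, 0.89 and 0.75, n = 7 each). Over the deviations of all 28 muscles from their group means r was 0.90 (rho 0.82), and 0.82 without the 2 muscles farthest from the median of Fgf21. The weaker value in VDR-OE muscles came with 15 to 62 reads of both genes together per muscle, and without rat 418 it was 0.28. In VDR-KD muscles r was 0.67 (rho 0.30) without the 2 farthest muscles. These are descriptions over muscles that share rats and depth.

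**Figure D2:**
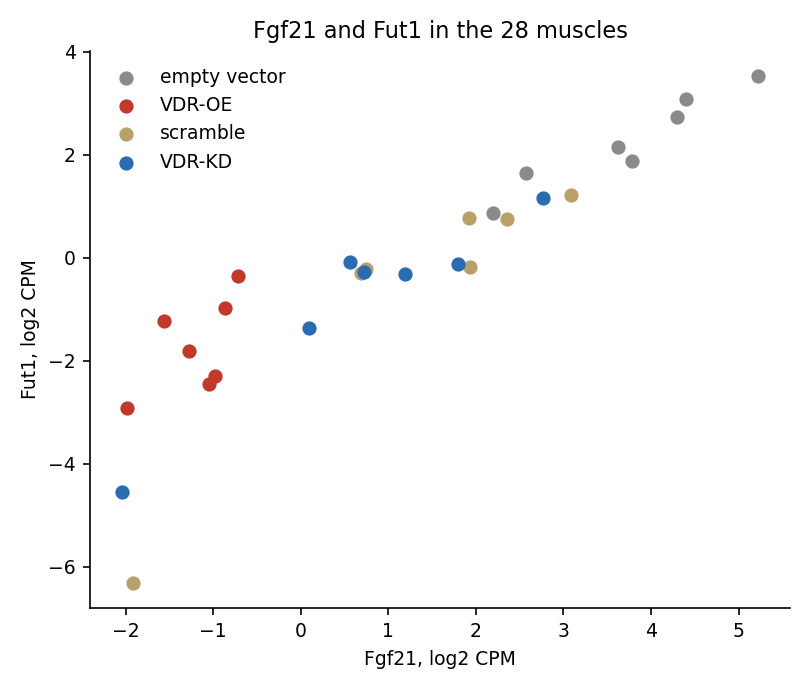
Log2 CPM of Fut1 against Fgf21 in the 28 muscles, coloured by group. Points run along a common diagonal, with r of 0.96 within empty vector muscles and 0.60 within VDR-OE muscles, which sit at the lower left.

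Leg differences of the 2 genes were also compared within rats. In the overexpression arm both were lower in 7 of 7 rats, a direction fixed by how the genes were chosen. In the knock-down arm, where rats differed in direction, both genes had the same direction in 7 of 7 rats, and r of the log2 ratios was 0.93 (rho 1, n = 7), and 0.94 without the 2 rats farthest from the median. In the overexpression arm r was 0.87 (rho 0.57), but 0.13 without the 2 farthest rats, so it rests on these. The leg difference in Vdr was opposite in sign to that of both genes in 4 of the 7 knock-down rats (r = −0.68 for Fgf21 and −0.72 for Fut1, rho −0.82 for each, n = 7). In the overexpression arm the signs were opposite in 6 of 7 rats, where the direction of both genes was fixed by their choice. Over these rats r was positive (0.17 for Fgf21 and 0.44 for Fut1, rho 0.14 and 0.75, n = 7), so the sign of r differed between the arms. Rat 423, with the lowest ratios of both genes, had a Vdr log2 ratio of 0.58, and rat 424, with the highest, had −1.66.

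**Figure D3:**
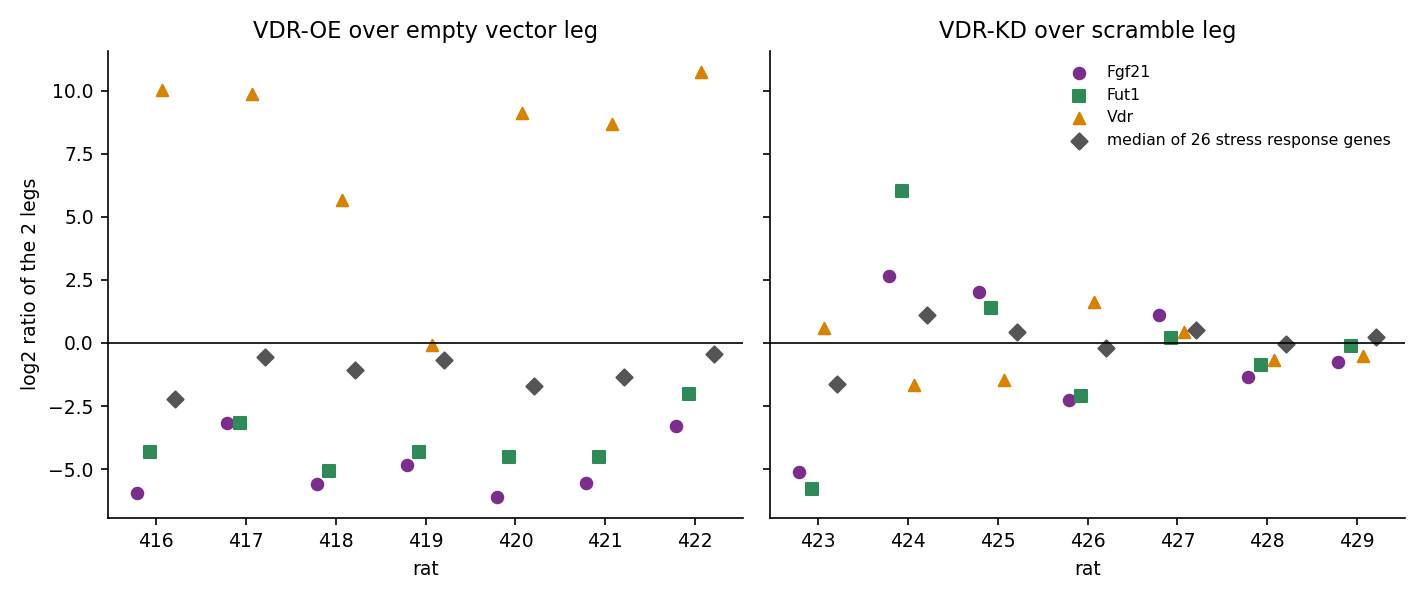
Log2 ratio of the right over the left leg in each rat for Fgf21, Fut1, Vdr and the median of 26 stress response genes. In rats 416 to 422 Fgf21 and Fut1 lie between −6.09 and −2.01 while Vdr is raised in 6 of 7; in rats 423 to 429 both genes lie on the same side of 0 in each rat.

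Fut1 took a similar part of the reads of the pair in 3 of the 4 groups. Its share of Fgf21 plus Fut1 reads was 21.0% to 34.6% in empty vector muscles (median 26.5%), 0% to 33.8% in scramble (median 24.6%) and 11.1% to 38.8% in VDR-KD (median 25.9%). In VDR-OE muscles it was 26.7% to 56.5% (median 40.6%). The VDR-OE values rest on a median of 30 reads of both genes against 615 in empty vector muscles. For rat 418, 5 of 15 reads were of Fut1 (33.3%, 95% exact binomial interval 11.8% to 61.6%). In rats 416, 420 and 422 the VDR-OE interval lay wholly above that of the empty vector leg. It was 34.9% to 75.6% against 26.3% to 31.0%, 33.3% to 62.8% against 21.8% to 25.5%, and 43.3% to 69.0% against 29.2% to 40.3%. In rats 417, 418, 419 and 421 the intervals of the legs overlapped. With reads pooled over muscles the share was 44.3% of 237 in VDR-OE and 25.8% of 6224 in empty vector. In rat 424 none of 10 scramble reads were of Fut1, which allows a share of up to 30.8% by the same interval. No test was made, since both genes were chosen on these reads.

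**Figure D4:**
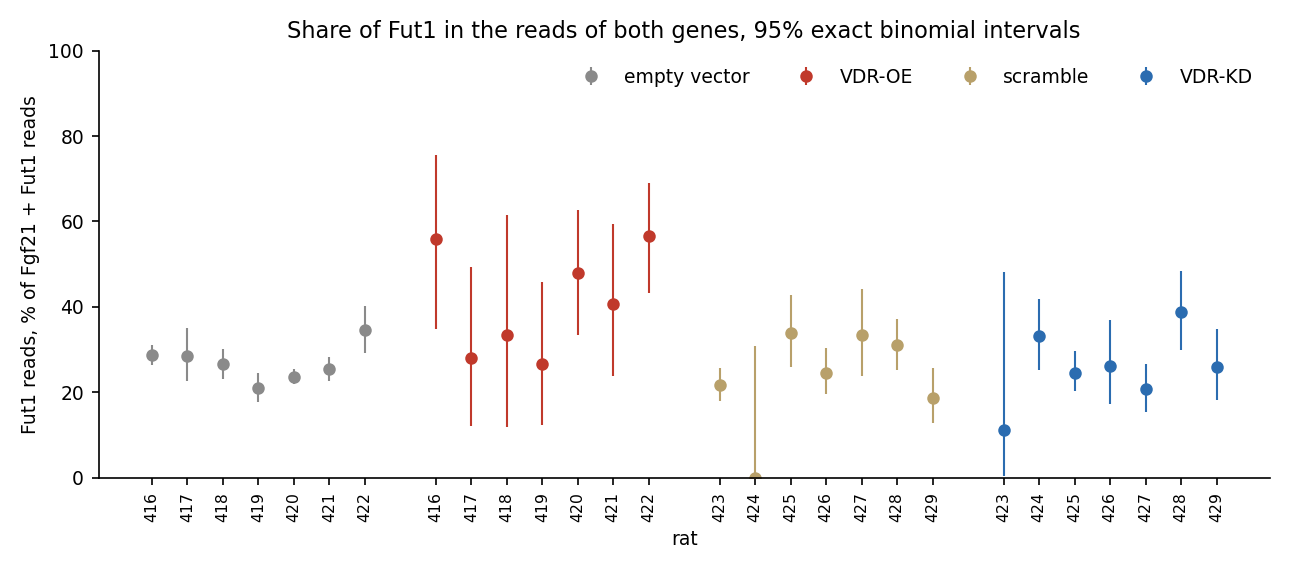
Reads of Fut1 as a percentage of reads of Fgf21 and Fut1 in each muscle, with 95% exact binomial intervals that cover counting error only. Empty vector muscles lie between 21.0% and 34.6%, and the VDR-OE intervals are wide because each holds only 15 to 62 reads.

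By likeness of pattern, each of the 2 genes was the closest of 14405 genes to the other. The next genes with a symbol were chosen by Pearson's r of deviations from group means over the 28 muscles. For Fgf21 they were Inhbe (activin E subunit, r = 0.84), Casp4 (inflammatory caspase, 0.84), Mthfd2 (mitochondrial folate enzyme, 0.84), Acot9 (mitochondrial acyl-CoA thioesterase, 0.84), Mettl16 (RNA methyltransferase, 0.81), Trib3 (pseudokinase induced by ATF4, 0.81), AABR07049405.1 (0.81) and Phgdh (serine synthesis, 0.80). For Fut1 they were Inhbe (0.86), Trib3 (0.81), Phgdh (0.81), Mthfd2 (0.81), Vtcn1 (immune checkpoint ligand, 0.80), Casp4 (0.80), AABR07049405.1 (0.79) and Acot9 (0.78), and 7 genes stood on both lists. Over all genes the median r was 0 with Fgf21 and −0.01 with Fut1, and 1.12% and 1.90% of genes exceeded 0.6. These r include the muscles with 0 or 1 read of Fut1, and Inhbe had 1 to 8 reads in VDR-OE and 0 to 92 in VDR-KD muscles. Symbols came only from the study's table of 1998 genes ranked on the VDR-OE contrast of these samples, so genes without a symbol could not be named.

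The integrated stress response genes were lower in VDR-OE legs as well. Of 43 listed targets 26 had a symbol and all 26 had a lower estimate, with a median log2 difference of −1.07 beside −0.003 over all genes. Of these 22 fell in edgeR's quasi-likelihood test and none rose, beside the 3.06% of all genes called lower. These 26 could be named because the study's ranking on these samples includes them, so the count is not independent evidence of the direction. Inhbe fell from 2.60 ± 1.67 to 0.0862 ± 0.0605 CPM (SD, n = 7; log2 −4.76, adjusted p = 0.0065), or from 31 to 224 reads per muscle to 1 to 8 reads, near the floor. With at most 8 reads in VDR-OE muscles, Inhbe lay below the count of 10 behind the filter (0.239 CPM) there. It was thus tested only through its empty vector muscles, and its adjusted p is no independent support. Soat2, also among the 22, had a mean of 0.109 CPM in VDR-OE muscles. Trib3, which restrains AKT, fell from 56.1 ± 43.6 to 5.16 ± 3.36 CPM (log2 −3.44, adjusted p = 0.0173). Sesn2, a leucine-sensing inhibitor of mTORC1, fell from 68.7 ± 37.2 to 16.2 ± 3.17 CPM (log2 −1.92, adjusted p = 0.0163). Atf5 (log2 −1.32), Cebpg (−0.69) and the cystine transporter Slc7a11 (−2.20) also fell, with adjusted p of 0.0112, 0.0163 and 0.0200. In scramble and VDR-KD muscles mean CPM was 19.1 and 20.7 for Sesn2, 6.68 and 7.52 for Trib3 and 51.4 and 50.6 for Atf5. These lay nearer to VDR-OE than to empty vector means (45.8 and 120.9 CPM for Atf5), and so did Cebpg. Inhbe (1.04 and 0.945 CPM) and Slc7a11 (1.25 and 1.19 CPM) lay between empty vector and VDR-OE. The members that were not called, named after their values were seen, were Mthfd2 (log2 −1.11), Atf3 (−0.98), Slc7a1 (−0.92) and Ddit3 (−0.47). The count of 22 depends on single rats: it was 24 without rat 416, 10 without rat 417, 14 without rat 419, 18 without rat 422 and 1 without rat 418, 420 or 421, while every estimate of the list stayed lower in each of these fits (25 of the list were tested without rat 418, and 26 otherwise). It was 26 with the likelihood ratio test and with DESeq2, 11 with all 28 muscles fitted together and 1 with library size alone as the scale. Of the genes of the list named with an adjusted p, Inhbe passed with each rat left out in turn. These refits reuse the contrast through which Inhbe could be named and tested, so they are not independent support.

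In the knock-down arm the same list showed 17 estimates higher and 9 lower, with a median of 0.07 beside 0.009 over all genes, and 0 calls by the quasi-likelihood test, the likelihood ratio test or DESeq2. With library size alone as the scale, which moves the median of all genes to 0.243, only 1 of the 26 was lower. Rat by rat, its median log2 ratio had the sign of the Fgf21 ratio in 6 of 7 rats, from −1.62 in rat 423 to 1.12 in rat 424, and rat 429 was the exception (0.25 against −0.74). Of the difference between arms, 0 of 15112 genes passed the quasi-likelihood test (0%), 1099 (7.27%) had an unadjusted p under 0.05, and 18 passed the likelihood ratio test and 44 DESeq2. Of the list, 22 of 26 had an unadjusted p under 0.05 for that difference, 0 passed the quasi-likelihood test, 4 the likelihood ratio test and 6 DESeq2. The VDR-OE contrast is part of that difference, and the study's ranking on it decided which 26 could be named. These counts are therefore not independent evidence either. The list's median r was 0.63 with Fgf21 and 0.61 with Fut1, with 16 and 14 of 26 above 0.6.

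**Figure D5:**
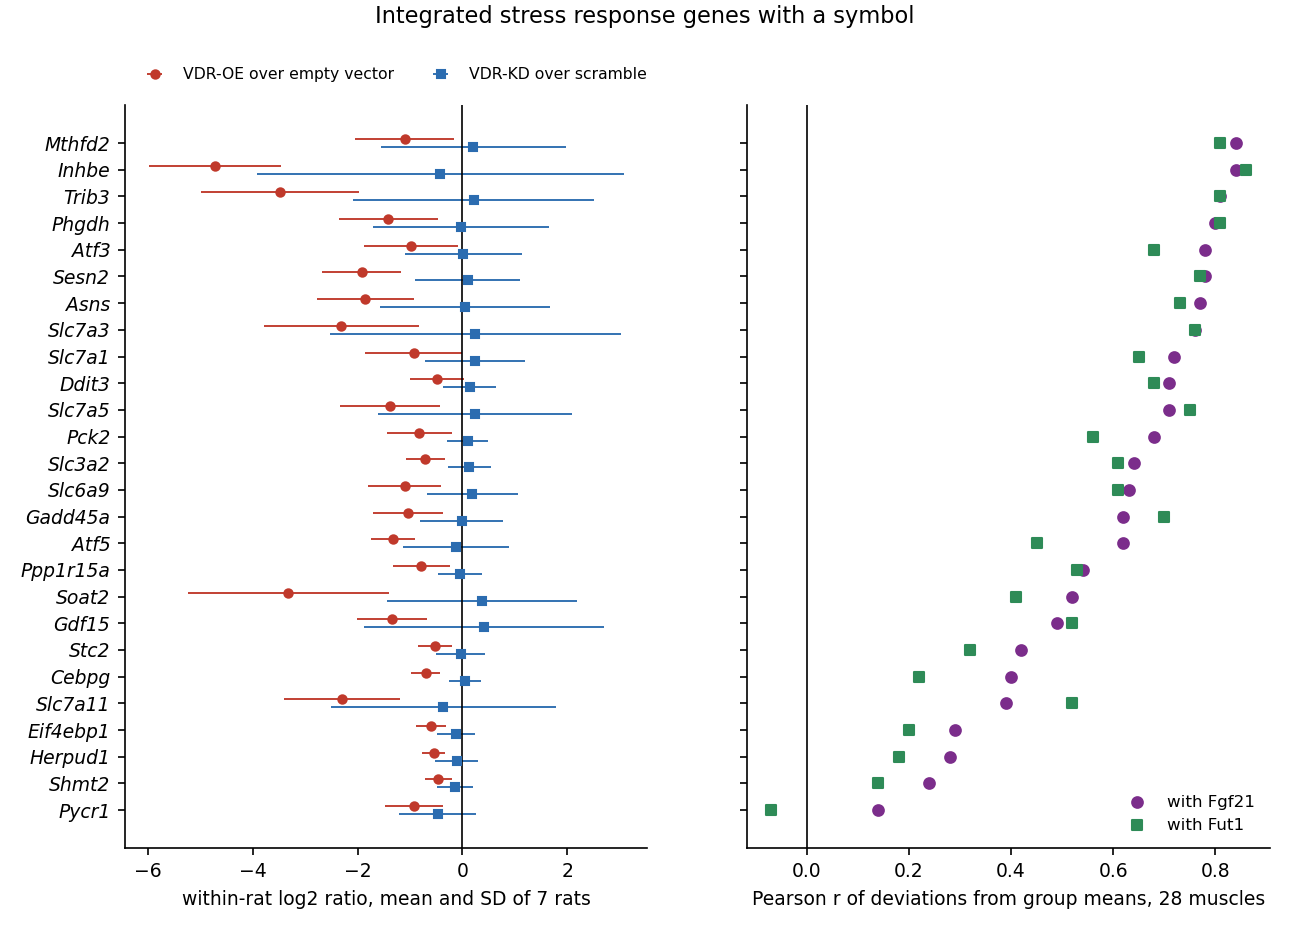
Left, mean within-rat log2 ratio with SD over 7 rats of the 26 stress response genes with a symbol, in the VDR-OE and VDR-KD arms; right, Pearson's r of each gene with Fgf21 and Fut1 over deviations from group means in 28 muscles. All VDR-OE means are below 0, VDR-KD means lie on both sides of it, and r runs from 0.14 to 0.84 with Fgf21 and from −0.07 to 0.86 with Fut1.

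The composite core was also looked for in promoters of the 26 genes of this list that could be named from the ranking on the VDR-OE contrast. Beside 3.98% of all 33469 promoters, 6 of 22 members with a RefSeq promoter held TGATGNAA on either strand (Trib3, Slc7a1, Herpud1, Inhbe, Pck2 and Pycr1). Windows around the match are shown for Inhbe and Trib3, the closest of these to Fgf21 in pattern, and for Herpud1 and Pycr1, whose r with Fgf21 was only 0.28 and 0.14. Capitals mark the match.
Inhbe: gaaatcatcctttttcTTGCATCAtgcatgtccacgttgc
Trib3: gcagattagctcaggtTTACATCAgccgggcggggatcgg
Herpud1: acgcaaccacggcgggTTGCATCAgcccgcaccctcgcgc
Pycr1: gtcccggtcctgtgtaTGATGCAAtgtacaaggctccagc
In GRCr8 these lie at chr7:65064724-65064763 (Inhbe), chr3:161275531-161275570 (Trib3), chr19:10614868-10614907 (Herpud1) and chr10:106420920-106420959 (Pycr1), all read from the minus strand. The 8 letters of the match are the same in Fgf21, Inhbe and Herpud1, and in Pycr1 on the other strand, although Herpud1 fell by only 0.55 on the log2 scale in VDR-OE legs (adjusted p = 0.0200) and the fitted difference of Inhbe was −4.76.

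Other listed genes could be named only from that same ranking on the VDR-OE contrast, so the counts called in the lists that follow, read beside 4.08% (higher) and 3.06% (lower) of all genes, are not independent evidence either, and members without a symbol were not seen. Genes around the stress response did not all follow. Among chaperones of the unfolded protein response 4 of 17 had a symbol, of which Pdia4 (log2 0.47, adjusted p = 0.0301) and Creld2 (0.62, adjusted p = 0.0364) rose and Dnajb9 fell (−0.35, adjusted p = 0.0477), while Pdia3 did not pass (0.50, adjusted p = 0.0512). Of the kinases and partners of ATF4, Eif2ak3 (the endoplasmic reticulum kinase PERK) rose (0.50, adjusted p = 0.0365) and Eif2s1 (eIF2α itself) fell (−0.26, adjusted p = 0.0445). The calls of all 5 genes were lost on leaving out any of rats 417 to 422 and with all 28 muscles fitted together (adjusted p from 0.0654 to 0.122).

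Of the receptors and feedback genes of FGF21 signalling 3 of 19 had a symbol. Fgfr4 rose from 19.4 ± 3.93 to 26.8 ± 8.87 CPM (SD, n = 7; log2 0.44, adjusted p = 0.0282) and Fgfr1 from 46.2 ± 5.22 to 59.2 ± 12.9 CPM (log2 0.34, adjusted p = 0.0378), each higher in 7 of 7 rats. Without rat 419 neither passed (adjusted p = 0.0604 and 0.0843), nor did they without the replicate block (0.111 and 0.0822) or with all 28 muscles fitted together (0.0952 and 0.103). Their calls were also lost without rat 417, 418, 420 or 421, and that of Fgfr1 without rat 422. Egr1, an immediate early gene, had a log2 difference of 0.87 that did not pass (adjusted p = 0.0758). Among other FGF ligands Fgf7 fell (−1.29, adjusted p = 0.0163), Fgf18 rose (0.74, adjusted p = 0.0477) and Fgf11 did not pass (−0.31, adjusted p = 0.0852). The call of Fgf7 was lost without rat 418, 420 or 421, and that of Fgf18 on leaving out any of rats 417 to 422. Srebf1, a lipogenic transcription factor and the single named gene of 17 reported to drive Fgf21, fell (−1.27, adjusted p = 0.0321), a call lost on leaving out rat 417, 418, 420, 421 or 422 and kept without rat 419 (adjusted p = 0.0407).

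The few genes of the fucosylation list that could be named had higher estimates in VDR-OE legs, and not all of them handle fucose. Of 20 listed 5 had a symbol, and 4 rose in VDR-OE legs. These were the fucosyltransferases Pofut2 (log2 0.30, adjusted p = 0.0291) and Pofut1 (0.40, adjusted p = 0.0442), the galactosyltransferase B4galt1 (0.31, adjusted p = 0.0351) and the fucosidase Fuca1 (0.55, adjusted p = 0.0488), which removes fucose. All 4 calls were lost on leaving out any of rats 417 to 422 and with all 28 muscles fitted together, and the other 15 of the list were not seen. The sialyltransferase St3gal4 had a log2 difference of 0.76 that did not pass (adjusted p = 0.0556). The r of these 5 genes with Fut1 ran from −0.08 to 0.38.

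On the chromosome, 2 of 21 listed neighbours had a symbol. Izumo1, a sperm-egg fusion gene and the next gene beyond Fut1, went from 1.20 ± 0.397 CPM in empty vector to 0.638 ± 0.214 CPM in VDR-OE muscles (SD, n = 7; log2 −0.91, adjusted p = 0.0502, not passed), with an r of 0.10 with Fut1. Ppp1r15a, 4 genes before Fgf21 and itself a stress response gene (it directs eIF2α dephosphorylation), fell by 0.77 on the log2 scale (adjusted p = 0.0371), with an r of 0.54 with Fgf21. Its call was lost without rat 417, 418, 419 (adjusted p = 0.0604), 420 or 421. It was also lost without the replicate block (0.0501) and with library size alone (0.174), and kept with all 28 muscles fitted together (0.0401). The other neighbours had no symbol to match, and strand handling in counting is not given in the sources used here.

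Markers of other cells moved in the same legs. All 5 fibroblast markers rose in VDR-OE legs, beside 4.08% of all genes and with the same limit on which genes have a symbol, with Pdgfra at log2 0.99 (adjusted p = 0.0220). Their summed level was 1510 to 5178 CPM in empty vector, 2187 to 8518 in VDR-OE, 2826 to 8687 in scramble and 2561 to 8710 in VDR-KD muscles. Of 4 macrophage markers with a symbol, of 6 listed, 3 rose (Mrc1 by log2 1.43, adjusted p = 0.0282, while Lyz2 at 1.49 did not pass, adjusted p = 0.0564), and their summed level was 124 to 454, 319 to 1019, 301 to 1127 and 250 to 1699 CPM in the same order. The adipocyte gene Cfd, the single named gene of 5, did not pass (log2 0.88, adjusted p = 0.0813) and ranged from 5.56 to 74.8 CPM over all muscles. The 5 fibroblast calls became 1 without rat 417, 2 without rat 419 and 0 without rat 418, 420 or 421, and the 3 macrophage calls became 2 without rat 419 and 0 without rat 417, 418, 420, 421 or 422. The r of these markers with Fgf21 or Fut1 ran from −0.42 (Col1a1 with Fut1) to 0.41 (Lyz2 with Fut1). Col1a1 had −0.40 with Fgf21, and Col3a1 had −0.35 with each gene. The part of these markers in the leg difference was not tested. Markers of muscle fibres, liver and endothelium had no symbol to match, so the labelled tissue could not be checked by them.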

How the data were processed

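RNA was extracted from whole muscle and sequenced as 75 base paired reads; per the study's methods the authors trimmed adaptors with trimmomatic, and aligned and counted reads with Rsubread. The values the authors deposited are whole, unnormalised read counts for every gene in every muscle (rat genome 6.0, Ensembl release 89). The submitters' processing notes also name edgeR 3.18.1. Groups came from the VDR status label and legs were paired by animal; the mean correlation of gene deviations between legs of the same rat was 0.253 in the overexpression arm and −0.113 in the knock-down arm. No 2 files of a group were identical (0 of 84 pairs).

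Here genes had to exceed the CPM of a count of 10 (0.239 and 0.251) in 7 muscles of an arm. Levels are TMM-normalised CPM over 28 muscles, and log2 values add 0.5 reads. Leg differences were fitted in R 4.3.3 with edgeR 4.0.16 (quasi-likelihood test, rat as a term, each arm alone; Benjamini-Hochberg over all genes, threshold 0.05), and the difference between arms in a fit of all 28 muscles. The study used edgeR's likelihood ratio test. The quasi-likelihood test replaced it because an earlier simulation on these counts had pointed to too many false calls. When tested on simulated data here, the share of false calls was alike for both tests, so that reason was not borne out, and both counts of calls are given. Alternatives were the likelihood ratio test, DESeq2 1.42.0, no rat term, other filters, a joint fit, library size alone, and leaving out each rat (for the difference between arms, added after the data were seen).

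Symbols came from the study's table of 1998 genes. Named genes were the 2 genes and Vdr, the 8 closest in pattern to each, up to 6 per list by smallest unadjusted p, and listed neighbours; the genes and lists were chosen with earlier results of these data known. Where nothing says how muscles were handled apart, p-values cover the spread between these rats.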

Additional observations from a re-analysis of the deposited data

Results flagged for a closer look

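In 66 sets of 7 values examined with Dixon's criterion, 4 held a muscle set apart from the other 6, where chance flags about 1 in 20 sets. Fut1 in the VDR-KD leg of rat 425 was 2.22 CPM, above the rest of its group. Atf5 in the same muscle was 123.9 CPM. In the library labelled VDR-OE of rat 419, whose Vdr was not raised, Srebf1 was 191 CPM and Fgfr4 was 45.8 CPM, both above the rest of that group.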

How the results depend on the processing

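The leg differences of Fgf21 and Fut1 kept their direction under all full-sample alternatives, at −5.20 to −4.84 and −4.04 to −3.91 (log2) in VDR-OE legs. In VDR-OE legs that direction was fixed by how the 2 genes were chosen, so only the range of sizes is informative. Leaving out each rat gave −5.27 to −4.73 and −4.40 to −3.83, and in the knock-down arm −0.91 to 0.17 and −0.87 to 0.20. The 1037 genes called in VDR-OE legs became 2262 with the likelihood ratio test, 2767 with DESeq2, 229 with all 28 muscles fitted together, 4 with library size alone (1 higher and 3 lower, against 593 and 444), and 3 to 4790 without each rat. Without the replicate block they were 887. The 22 stress genes called became 26 with the likelihood ratio test and with DESeq2, 11 in the joint fit, 1 with library size alone and 1 to 24 without each rat. Library size alone moved the median of all genes to 0.114 in VDR-OE and 0.243 in VDR-KD legs. For the difference between arms, 0 genes became 18 with the likelihood ratio test, 44 with DESeq2, 11 without the replicate block, 1 with no filter, 1 with a filter in 2 muscles, and 0 to 1 without each rat; the stress genes called became 4, 6 and 2 in the first 3 of these. The r of Fgf21 and Fut1 was 0.28 to 0.75 in VDR-OE muscles without each rat, and 0.75 as Spearman's rho in VDR-KD muscles. The cause of these shifts was not tested. At 5 to 35 reads, Fut1 ratios in VDR-OE legs are limited by counting.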
